A study of Mus musculus with 12 samples.

Results

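Low-density neutrophils (LDN) were compared with high-density neutrophils (HDN) from the blood of mice bearing liver metastases, across all genes. Both fractions came from female Balb/c mice aged 8 weeks, and each was sequenced as 4 libraries numbered 3, 4, 5 and 7. These 8 of the 12 libraries of the series were chosen by their labels as LDN or HDN, with no measured value involved. The remaining 4 libraries, Naive, held bone marrow neutrophils of mice of the same strain, sex and age, and enter through the shared estimate of the spread between replicates and, for a few genes, as levels given beside those of LDN and HDN. The count column names of the 8 LDN and HDN libraries carry a date-like tag that those of Naive lack, and its meaning is not stated. Any difference in handling between Naive and the blood libraries cannot be told apart from that between marrow and blood. The labels name no tumour line, transgene or treatment, give no day of collection, and do not say whether a number stands for 1 animal or a pool. P-values therefore measure the spread between these libraries, part of which may be technical.

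Neutrophils are usually the densest leukocytes of blood, because they carry many granules. On a density gradient most sink through the medium as the high-density fraction, while a low-density fraction stays above it with the mononuclear cells and grows in cancer and inflammation. The low-density fraction of tumour-bearing hosts is known to mix immature cells, released early from the marrow, with cells that have lost density after activation. Lists of granule, mitosis and DNA replication genes were left aside here, so that the rest of the transcriptome can be described.

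The fractions differed over a large part of the transcriptome. Of 10604 genes tested, 4914 (46.3%) passed an adjusted p of 0.05, with 2761 (26.0%) higher and 2153 (20.3%) lower in LDN. A difference of at least 2-fold was found for 2511 genes (23.7%), 1455 of them higher (13.7%) and 1056 lower (9.96%). At 4-fold or more, 539 genes (5.08%) were higher and 251 (2.37%) lower. The 4 LDN and 4 HDN libraries did not overlap at all for 4162 genes (39.2%), of which 2499 (23.6%) lay higher and 1663 (15.7%) lower in LDN. Fold changes are on the log2 scale, LDN over HDN, after scaling of library sizes by TMM. Errors on them are standard errors (SE) derived from the test, as the absolute log2 fold change over the square root of the F statistic.

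The excess of higher genes depended on how the libraries were scaled. When library sizes were taken without the 20 most abundant genes, 2245 genes were called higher and 2776 lower, so that 44.7% of the calls were higher in place of 56.2%. That scaling moved the log2 fold changes of all genes by a median of -0.14. The median over all genes tested was 0.02 in the main scaling, with quartiles at -0.46 and 0.56. Directions given below are relative to this bulk of genes.

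**Figure D1:**
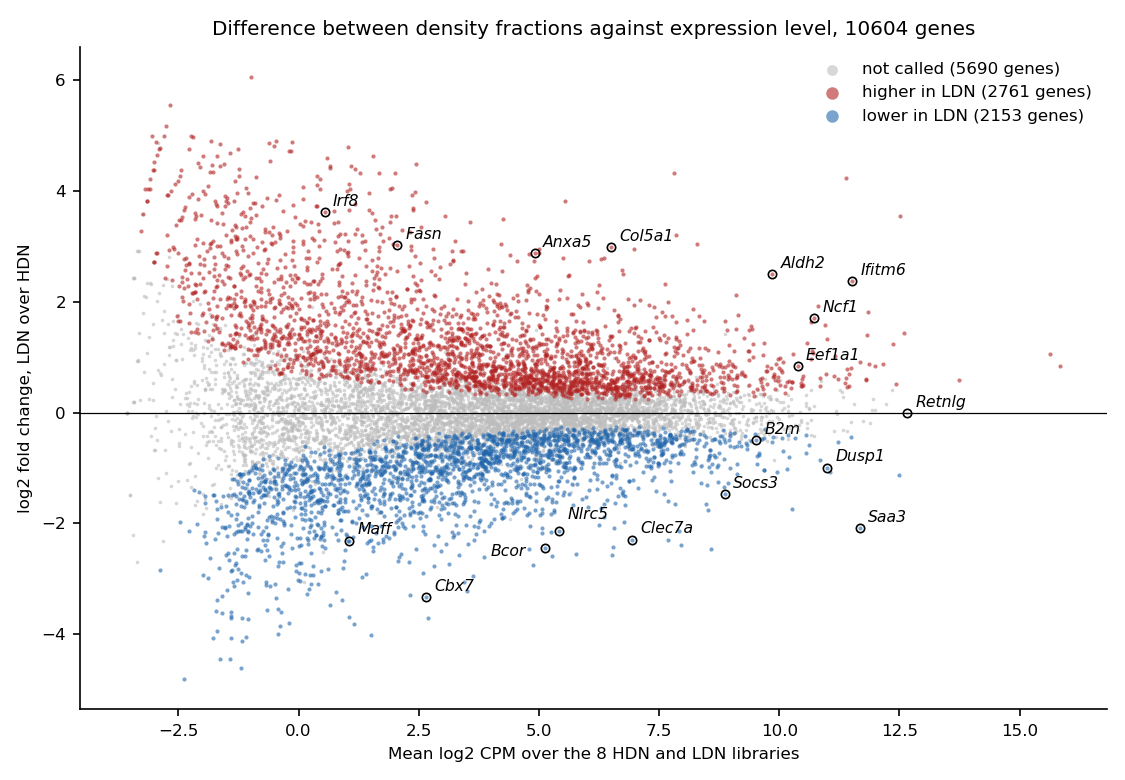
Each point is 1 of the 10604 genes tested, at its mean log2 CPM over the 8 libraries (x) and its log2 fold change of LDN over HDN (y). Red points were called higher in LDN (2761), blue points lower (2153), grey points were not called; the ringed genes are described in the text.

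Called genes lay at every level of expression, while large folds were more common among weakly expressed genes. With the genes divided into 4 equal bins by mean level, in the bin with the highest level 28.2% were higher and 17.4% lower in LDN, and in the lowest bin 28.3% and 20.5%. Differences of at least 2-fold numbered 672 higher and 484 lower in the lowest bin, against 194 and 80 in the highest. The median SE fell from 0.39 in the lowest to 0.15 in the highest bin, so that abundant genes were called at smaller folds. By type of transcript, 27.8% of 309 long noncoding RNAs were lower and 15.5% higher in LDN. Of 21 small nucleolar RNAs, 10 were lower and 0 higher, with a median log2 fold change of -1.04. Many lie in introns of host genes, and reads of the 2 cannot be told apart here.

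Within the replicate numbers, 4805 of the 4914 called genes (97.8%) differed in the same direction in all 4 numbers, as did 6921 of all genes tested (65.3%). The called set included 3911 genes whose libraries did not overlap and 1003 whose libraries did. The median called gene differed by 1.05 when higher and by -0.99 when lower, with a median SE of 0.21. The authors' deposited table for the same comparison gave an adjusted p for 12767 genes and called 2797 higher and 2659 lower in LDN.

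The libraries were of similar depth, at 20049857 to 30044508 reads in HDN and 23181686 to 26456768 in LDN, so that 3 reads correspond to 0.0954 to 0.153 normalised CPM (read counts scaled to library size). LDN libraries were more concentrated on few genes. The fewest genes that together made up 50% of the counts numbered 260, 259, 252 and 354 in HDN and 181, 166, 153 and 189 in LDN, a difference of -109 (exact two-sided permutation p = 0.0286, adjusted 0.0571 over the 2 measures compared). HDN 7 stood apart from the other HDN libraries, with the count of 354 and a TMM factor of 1.28 against 1.01 to 1.05. Without HDN 7 the difference in composition was -84.75, the fractions still did not overlap, and 4765 genes were called, 2692 higher and 2073 lower. Genes above 1 CPM numbered 8901 ± 224 in HDN and 8766 ± 125 in LDN (SD, n = 4 each; exact permutation p = 0.371).

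Neutrophil markers dominated both fractions. Their summed level was 84478 to 136833 CPM in HDN and 175519 to 226749 CPM in LDN, over 19 of 19 markers detected. Monocyte and macrophage markers (18 genes) summed to 679 to 961 CPM in HDN and 587 to 783 CPM in LDN, with C1qa, C1qb and C1qc at 0 reads in every HDN library and 12 to 14 reads each over all LDN libraries. Fn1, in the same list, was at 12.6 ± 2.09 CPM in HDN and 176 ± 47 in LDN, while Csf1r was at 367 ± 113 and 122 ± 17.3 (SD, n = 4). T cell markers (13 genes) ranged from 4.84 to 30.5 CPM in HDN and from 36.7 to 56.9 CPM in LDN, and B cell markers (9 genes) ranged from 0.61 to 3.5 and from 2.56 to 10.9 CPM. Cd3d alone was at 8.11 ± 4.96 and 34.7 ± 6.46 CPM (SD, n = 4), and it was the 1 T cell marker called among 11 tested, whose median log2 fold change was -0.02. Haematopoietic progenitor markers (13 genes) summed to 358 to 799.5 CPM in HDN and 107 to 193 CPM in LDN, of which Kit made up 590.01 ± 181 and 112 ± 36.5 CPM. Without regard to level the progenitor list went the other way, with 4 of 7 tested members higher, among them Erg at 1.42 ± 0.318 and 18.3 ± 1.45 CPM, 1 lower and a median of 1.38. Eosinophil markers (11 genes) summed to 40.5 to 87.2 and 14.7 to 24.6 CPM, mostly Siglecf at 63.1 ± 21.9 and 17.6 ± 3.42 CPM, while 7 tested members gave 1 higher, 2 lower and a median of 0.23. Dendritic cell markers (12 genes) summed to 24.3 to 43.3 and 9.96 to 16.6 CPM. Most of that sum was Itgax at 20.5 ± 5.48 and 4.45 ± 1.09 CPM and Bst2 at 10.8 ± 7.65 and 4.75 ± 1.82 CPM. The 5 tested members gave 2 higher, 2 lower and a median of 0.62. Of 12 hepatocyte markers 9, albumin among them, were at 0 in all 8 libraries, as were 6 of 12 epithelial markers, 7 of 11 stromal markers and the haemoglobins. Fewer cells of a type and less RNA per cell cannot be told apart in such bulk samples, and the part these markers play in the differences below was not tested.

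**Figure D2:**
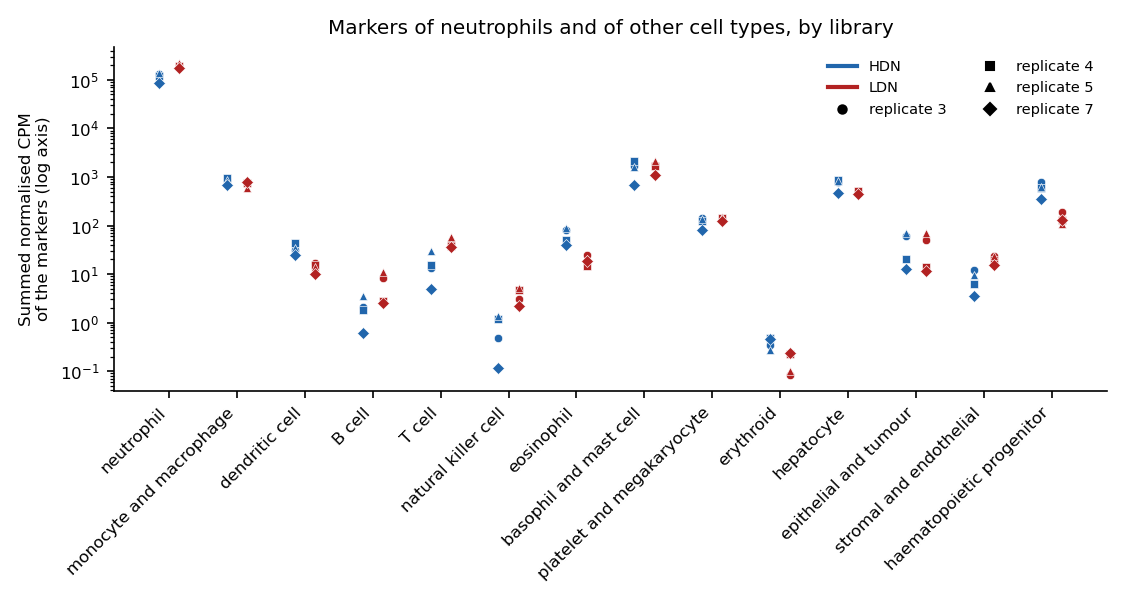
Summed normalised CPM (log axis) of fixed marker genes of 14 cell types in each of the 8 libraries; blue symbols are HDN, red symbols LDN, and the shape gives the replicate number. Neutrophil markers lie at 84478 CPM or more in every library, and T cell, natural killer cell and stromal sums lie higher in every LDN library than in any HDN library, while dendritic cell, eosinophil and progenitor sums lie lower. The T cell, stromal, eosinophil and progenitor sums rest mostly on Cd3d, Pecam1, Siglecf and Kit, and the dendritic cell sum on Itgax and Bst2.

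Genes with large differences are described first, among those of at least moderate level without overlap between the fractions. Left out were the granule, mitosis and DNA replication lists and 32 genes already described in an earlier account of these data, such as Fn1 above. Pnpla1, a patatin-like lipid acyltransferase known from skin, was at 8.43, 6.71, 8.87 and 2.94 CPM in HDN 3, 4, 5 and 7 and at 47.3, 58.3, 65.3 and 50.2 CPM in LDN. Every LDN library was above every HDN library, and the log2 fold change was 3.04 ± 0.28 (8.21-fold; adjusted p = 3.24e-06). Slc17a9, the transporter that loads ATP into secretory vesicles, was among the most even of these genes across replicates: it was at 10.03, 6.898, 7.99 and 6.49 CPM in HDN and at 55.2, 60.02, 56.4 and 53.9 CPM in LDN (2.85 ± 0.15; adjusted p = 1.01e-07). Annexins bind phospholipid membranes when calcium rises. Anxa3, an abundant annexin of neutrophil granules, stood at 70.8, 31.3, 64.9 and 26.9 CPM in HDN and at 411, 286, 514 and 278 CPM in LDN (2.94 ± 0.32; adjusted p = 1.08e-05). Anxa5, which binds exposed phosphatidylserine, stood at 13.3, 11.8, 12.9 and 6.95 CPM in HDN and at 70.3, 88.9, 91.8 and 79.7 CPM in LDN (2.88 ± 0.18; adjusted p = 2.86e-07). The LDN level of Anxa5 was close to that of marrow neutrophils, which was 90.5 ± 4.04 CPM (SD, n = 4) in Naive.

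Enzymes were a second group among these leaders. Aldh2, the mitochondrial aldehyde dehydrogenase, was the most abundant of them: it was at 522, 420.3, 569 and 149.6 CPM in HDN and at 2119, 2539, 2785 and 1958 CPM in LDN (2.50 ± 0.31; adjusted p = 3.47e-05). HDN 7 was the lowest library for Aldh2, as it was for Pnpla1 and Anxa5. Lta4h, which makes leukotriene B4, a neutrophil attractant, was at 53.1, 50.4, 48.9 and 32.6 CPM in HDN and at 254, 262, 316 and 211 CPM in LDN (2.50 ± 0.17; adjusted p = 4.16e-07). Fah, the last enzyme of tyrosine breakdown, had a mean of 12.1 ± 3.69 CPM in HDN and 88.6 ± 17 CPM in LDN (2.87 ± 0.22). Adpgk, an ADP-dependent glucokinase, rose from 271 ± 82.6 to 1172 ± 239 CPM (2.11 ± 0.22).

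Receptors, matrix and cytoskeletal genes made up the remainder. Acvrl1, the type I receptor ALK1 for bone morphogenetic proteins, was at 31.2, 26.4, 27.5 and 18.9 CPM in HDN and at 131, 199, 152 and 213 CPM in LDN (2.74 ± 0.19; adjusted p = 4.16e-07), against 1.66 ± 0.218 CPM in Naive. Col5a1, a fibrillar collagen chain, was at 31.7, 57.1, 20.4 and 27.2 CPM in HDN and at 205, 392, 173 and 307 CPM in LDN (2.98 ± 0.32; adjusted p = 9.3e-06). Stromal collagens such as Col1a1 and Col3a1 were at 0 in all 8 libraries, while Col5a1 was read in every library. Rhou, an atypical small GTPase, rose from 44.4 ± 10.99 to 265 ± 30.5 CPM (2.58 ± 0.18) and Sept5, a septin that associates with exocytosis, from 17.3 ± 3.47 to 119 ± 11.6 CPM (2.78 ± 0.15). The other genes that the naming rule placed here, Olfml2b, Trp53inp2 and Dnah8, differed by 2.72 to 2.78.

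At the highest expression levels the increases were smaller. Ifitm6, a myeloid member of the interferon-induced transmembrane family, was at 1601, 1434, 1801 and 582 CPM in HDN and at 6437, 7717, 7822 and 5895 CPM in LDN (2.36 ± 0.27; adjusted p = 1.81e-05). Its neighbour in the family, Ifitm1, was not called, at 4635 ± 1331 CPM in HDN and 5134 ± 496 CPM in LDN (0.15 ± 0.21; adjusted p = 0.583). Ncf1, the p47phox subunit of the NADPH oxidase, was at 1022, 1038, 944 and 757 CPM in HDN and at 2858, 3325, 3261 and 2837 CPM in LDN (1.71 ± 0.13; adjusted p = 9.71e-07). Stom, a membrane scaffold of granules and lipid rafts, and Plbd1, a granule phospholipase B-like protein, were higher by 1.87 ± 0.19 and 1.73 ± 0.19. Several very abundant genes showed no call: Retnlg, a resistin-like secreted protein, was at 6621 ± 1414 CPM in HDN and 6553 ± 1144 CPM in LDN (-0.01 ± 0.19), and Hp, haptoglobin, at 4056 ± 857 and 4201 ± 355 CPM (0.05 ± 0.17). Their adjusted p-values were 0.956 and 0.832, and a p above the threshold does not show that the levels were equal.

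**Figure D3:**
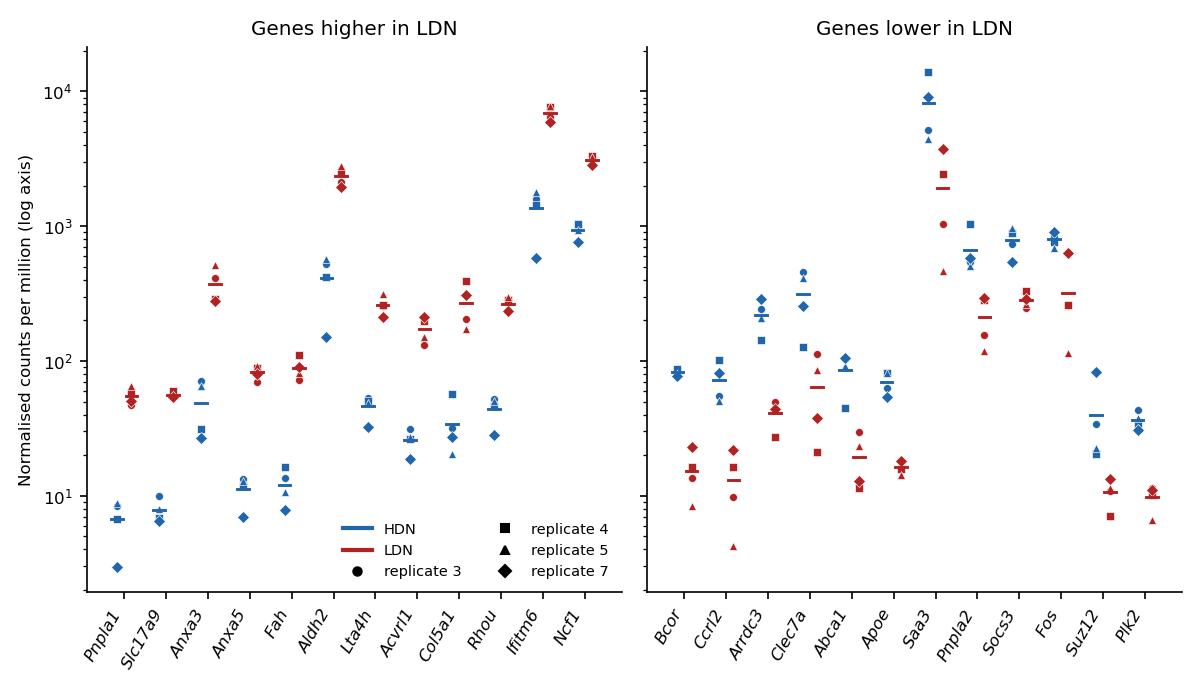
Normalised CPM (log axis) of 24 leading genes in each of the 4 HDN (blue) and 4 LDN (red) libraries, with the replicate number as the symbol and the group mean as a bar. The fractions are separated for every gene shown, and HDN 7 is the lowest HDN library for most of the genes higher in LDN, such as Aldh2 at 149.6 CPM.

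Genes lower in LDN included surface receptors, lipid efflux genes and inflammatory feedback genes. Clec7a, the beta-glucan receptor Dectin-1, was at 457, 128, 415 and 257 CPM in HDN and at 112, 21.04, 85.96 and 37.9 CPM in LDN (-2.29 ± 0.48; adjusted p = 0.0017). The level varied between numbers in both fractions, with library 4 the lowest in each. Ccrl2, an atypical receptor that presents chemerin, was at 54.9, 101, 50.9 and 81.1 CPM in HDN and at 9.81, 16.4, 4.24 and 22.02 CPM in LDN (-2.45 ± 0.46; adjusted p = 0.000724). Here numbers 4 and 7 were the higher ones in both fractions. Amica1, the junctional adhesion molecule JAML of migrating leukocytes, fell from 220.3 ± 32.1 to 55.8 ± 15.2 CPM (-1.98 ± 0.18).

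Of the genes named by the rule, 4 with roles in lipids were lower, while others with such roles, such as Pnpla1 and Plbd1, were higher. Abca1, the cholesterol efflux pump, was at 103, 44.7, 91.9 and 106 CPM in HDN and at 29.9, 11.4, 23.4 and 12.8 CPM in LDN (-2.16 ± 0.33; adjusted p = 0.000167). Apoe, the lipid carrier that receives its cholesterol, was at 62.9, 81.4, 80.9 and 54.4 CPM in HDN and at 17.7, 15.8, 14.2 and 18.2 CPM in LDN (-2.08 ± 0.17; adjusted p = 1.52e-06). Pnpla2, adipose triglyceride lipase, was at 545, 1031, 510.4 and 585 CPM in HDN and at 156, 285, 118 and 293 CPM in LDN (-1.65 ± 0.30; adjusted p = 0.000655). Gm2a, the GM2 ganglioside activator of lysosomes, fell from 690.4 ± 149 to 203 ± 41.4 CPM (-1.76 ± 0.20). HDN and LDN did not overlap for any of these 4 genes.

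Acute-phase and signalling genes were also among those that fell. Saa3, an inducible serum amyloid A, was at 5149, 13970.2, 4441 and 9032 CPM in HDN and at 1039, 2442, 468 and 3716 CPM in LDN (-2.09 ± 0.53; adjusted p = 0.00557). In both fractions numbers 4 and 7 were high and 3 and 5 low, and its level in Naive was 2.64 ± 0.632 CPM. Socs3, the feedback inhibitor of IL-6 and G-CSF receptor signalling, was at 743, 893, 963 and 547 CPM in HDN and at 249, 332, 265 and 289.7 CPM in LDN (-1.47 ± 0.22; adjusted p = 0.000158). Fos, an immediate-early AP-1 subunit that is also induced by cell handling, was at 852, 765, 692 and 898 CPM in HDN and at 259, 262, 114 and 632 CPM in LDN (-1.34 ± 0.40; adjusted p = 0.0151). LDN 7 was closest to the HDN libraries for Fos. Arrdc3, an arrestin-domain regulator of receptor turnover, fell from 220.3 ± 61.02 to 41.2 ± 9.54 CPM (-2.42 ± 0.22) and Slc28a2, a nucleoside transporter, from 578 ± 89.2 to 233 ± 47.8 CPM (-1.31 ± 0.15). The further genes that the rule names, Krt80, Arl4c, AF251705, Ambp and Mtmr10, differed by -2.18 to -1.88.

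Groups of genes were then followed through 44 lists of 1115 distinct genes, of which 936 were tested. Each count of members in the main fit is read against the 26.0% of all genes called higher and the 20.3% called lower, and each median log2 fold change against 0.02. Counts given for other settings have other backgrounds. With the replicate number as a block, 2861 genes were called higher and 2848 lower of 9983 tested. The scaling without the 20 most abundant genes called 2245 higher and 2776 lower of 10604. More lower members under either setting are thus not by themselves a change particular to a list. Members named below were taken by the naming rule unless stated. The counts describe these lists and were not tested as sets.

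**Figure D4:**
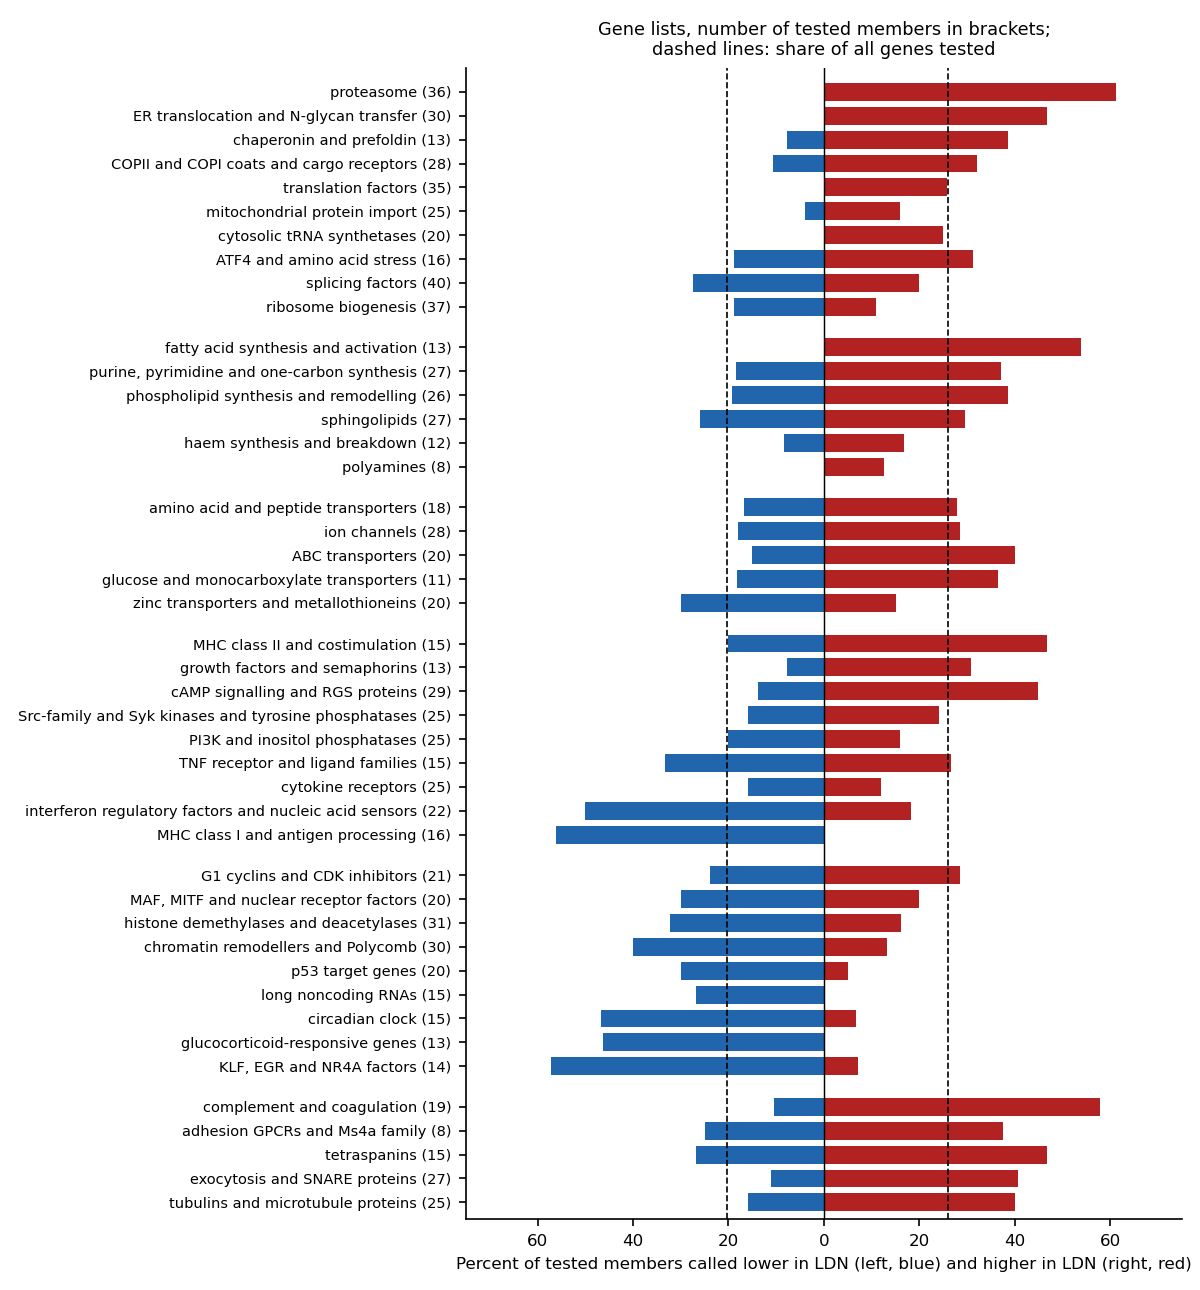
Percent of tested members of each of 44 gene lists that were called higher (red, right) or lower (blue, left) in LDN, with the number of tested members in brackets and the share of all genes tested as dashed lines at 26.0% and 20.3%. The proteasome (61.1%), complement and coagulation (57.9%) and fatty acid synthesis (53.8%) lists reach farthest right, and the KLF, EGR and NR4A (57.1%) and MHC class I (56.2%) lists farthest left.

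Among genes that make, fold and destroy protein, increases were most common in the proteasome and at the endoplasmic reticulum. Of 36 proteasome subunits, 22 (61.1%) rose and 0 fell, with a median of 0.45. Psmd14, the deubiquitinating subunit of the lid, was at 12.1, 10.1, 12.6 and 11.2 CPM in HDN and at 45.8, 28.97, 49.2 and 33.05 CPM in LDN (1.77 ± 0.20; adjusted p = 1.31e-05). Psmd1, the large scaffold of the base, rose by 1.39 ± 0.29. The 3 catalytic subunits of the immunoproteasome, named after their values were seen, went against the list: Psmb8, Psmb9 and Psmb10 had log2 fold changes of -0.44 ± 0.28, -0.49 ± 0.29 and -0.45 ± 0.45 and were not called. With the replicate number as a block, 27 subunits were higher and 3 lower, and Psmb8, Psmb9 and Psmb10 were the lower ones (adjusted p = 0.018, 0.0248 and 0.0115). Without the 20 most abundant genes in the scaling, 15 subunits were higher.

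The list of endoplasmic reticulum translocation and N-glycan transfer had 14 of 30 members higher and 0 lower, with a median of 0.33. Ddost, a subunit of the oligosaccharyltransferase, rose by 1.00 ± 0.27, while Sec61a1, the channel itself, was not called (-0.09 ± 0.15; adjusted p = 0.623). This count was sensitive to the libraries: 8 members were higher without LDN 7, 9 without LDN 4, 9 without LDN 5, and 18 higher with 2 lower without HDN 4, and the scaling without the 20 most abundant genes left 7 higher and 1 lower. Coat proteins and cargo receptors gave 9 of 28 higher and 3 lower (5 lower with the replicate block). The largest increases there were in Lman1, the cargo receptor for coagulation factors, at 2.66 ± 0.751 CPM in HDN and 12.2 ± 3.39 CPM in LDN (2.21 ± 0.28), and in Sec24d, a cargo adaptor of COPII vesicles (2.05 ± 0.24).

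Translation genes were nearer to the background. Of 35 translation factors, 9 were higher and 0 lower, a share of 25.7% that is close to the background. Eef1a1, the elongation factor that delivers aminoacyl-tRNA, was at 1030.5, 971, 1051 and 949 CPM in HDN and at 1999, 1663, 1926 and 1566 CPM in LDN (0.84 ± 0.15; adjusted p = 0.000559). With the replicate block 4 translation factors were lower, 1 was without HDN 4, HDN 7, LDN 4 or LDN 7, and with the scaling that leaves out the 20 most abundant genes 2 were. Among 20 cytosolic tRNA synthetases 5 were higher and 0 lower (3 lower with the block, 2 without LDN 4), led by Dars, the aspartyl enzyme (2.04 ± 0.29). Ribosome biogenesis had 4 of 37 members higher (10.8%), below the background share, and 7 lower (18.9%), near it, with a median of -0.33 (12 lower with the block, 4 without LDN 5). Nop56, a core protein of box C/D ribonucleoproteins, fell from 9.42 ± 2.77 to 2.68 ± 0.512 CPM (-1.81 ± 0.23), while Bysl, a factor of small-subunit maturation, rose from 5.87 ± 2.54 to 17.9 ± 2.497 CPM (1.61 ± 0.28). Of 40 splicing factors 8 were higher and 11 lower, with Snrpa, a protein of the first spliceosomal particle, at 2.30 ± 0.20 and Srsf7, an SR protein, at -1.15 ± 0.15. The chaperonin and prefoldin list had 5 of 13 higher and 1 lower (3 higher without HDN 3, HDN 5, LDN 3, LDN 4 or LDN 7). Mitochondrial import had 4 of 25 higher and 1 lower, with 7 higher without HDN 4, 5 without HDN 7, 2 without any other single library. Its lower count was 2 without HDN 3, HDN 5 or LDN 4, and 3 with the block.

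Genes of the amino acid stress response, which is driven by the factor ATF4, were called at shares near the background. Of 16 tested, 5 (31.2%) were higher and 3 (18.8%) lower. Slc7a5, the large neutral amino acid transporter, rose from 32.1 ± 8.24 to 88.2 ± 10.4 CPM (1.46 ± 0.17), and Asns, asparagine synthetase, from 41.4 ± 5.197 to 78.4 ± 5.09 CPM (0.92 ± 0.11). Ddit3, the pro-apoptotic factor CHOP, was at 23.8, 27.3, 33.95 and 28.5 CPM in HDN and at 8.81, 8.21, 9.602 and 9.78 CPM in LDN (-1.64 ± 0.19; adjusted p = 2.02e-05). Ppp1r15a, the GADD34 subunit that restores translation after stress, was at 52.3, 48.3, 51.8 and 90.7 CPM in HDN and at 14.1, 16.1, 6.28 and 44.3 CPM in LDN (-1.59 ± 0.45; adjusted p = 0.0116). HDN 7 and LDN 7 were the highest libraries of their fractions for Ppp1r15a. Atf4 itself was not called (-0.14 ± 0.22; adjusted p = 0.635).

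Metabolic lists were led by fatty acid synthesis. Fatty acid synthesis and activation had 7 of 13 members higher and 0 lower, with a median of 0.78. Fasn, fatty acid synthase, was at 0.969, 1.97, 2.13 and 0.878 CPM in HDN and at 9.77, 15.3, 7.51 and 16.2 CPM in LDN (3.02 ± 0.34; adjusted p = 1.53e-05). Acaca, the acetyl-CoA carboxylase that feeds it, was at 5.48, 3.69, 5.82 and 6.53 CPM in HDN and at 18.9, 9.87, 19.1 and 13.96 CPM in LDN (1.52 ± 0.27; adjusted p = 0.000582). Both enzymes were separated between the fractions although their levels were low. Hsd17b12, an elongation reductase, rose by 1.51 ± 0.17, and Elovl1, the most abundant of the members that did not pass, had a smaller difference (0.10 ± 0.15; adjusted p = 0.617). The count of higher members was 7 or 8 whichever library was left out.

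Phospholipid genes gave 10 of 26 higher and 5 lower. Lpcat1, which reacylates lysophosphatidylcholine, rose from 5.79 ± 1.902 to 19.7 ± 5.18 CPM (1.76 ± 0.23), and Agpat2, an acyltransferase of phosphatidic acid synthesis, from 61.1 ± 10.02 to 142 ± 22.2 CPM (1.22 ± 0.14), while its relative Agpat5 fell from 5.59 ± 1.32 to 2.04 ± 0.356 CPM (-1.45 ± 0.20). Sphingolipid genes were divided, with 8 of 27 higher and 7 lower. The higher count was 5 without HDN 3 or HDN 7 and 4 without LDN 4 or LDN 7, and the lower count 4 without HDN 3 or HDN 5. Degs1, the dihydroceramide desaturase, was at 159, 159, 159 and 131 CPM in HDN and at 388, 542, 444 and 563 CPM in LDN (1.67 ± 0.13; adjusted p = 1.13e-06). The sphingosine-1-phosphate receptors S1pr1, which guides egress from tissue, and S1pr4 rose by 1.68 ± 0.22 and 1.35 ± 0.19.

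Purine, pyrimidine and one-carbon synthesis had 10 of 27 higher and 5 lower, with a median of 0.40. Adenine nucleotide enzymes led: Aprt, the adenine salvage enzyme, was at 30.4, 34.8, 27.6 and 21.7 CPM in HDN and at 89.9, 111, 97.96 and 92.3 CPM in LDN (1.77 ± 0.15; adjusted p = 1.8e-06). Adss, which makes adenylosuccinate, rose from 19.5 ± 3.49 to 72.6 ± 31.4 CPM (1.90 ± 0.27) and Paics, an enzyme of the new synthesis of purines, from 1.56 ± 0.723 to 6.37 ± 1.45 CPM (2.02 ± 0.35). Members lower in LDN were Prps1 (-1.07 ± 0.26), which makes the ribose precursor, Cad (-0.99 ± 0.22), which starts pyrimidine synthesis, and Impdh2 (-0.95 ± 0.21), which commits purines to guanine nucleotides. Prps1, Cad and Impdh2 were all without overlap between the fractions. Haem genes gave 2 of 12 higher and 1 lower, with Fech, which inserts the iron, at -1.21 ± 0.18, and polyamine genes 1 of 8 higher. Without HDN 7, 3 haem genes were lower (2 with the replicate block), and without HDN 4, HDN 7 or LDN 3 no polyamine gene was higher (2 were lower with the block).

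Transport lists held large single differences. Among ABC transporters 8 of 20 (40.0%) were higher and 3 (15%) lower. Abcc5, an exporter of cyclic nucleotides, was at 13.2, 15.3, 11.2 and 12.5 CPM in HDN and at 67.7, 82.1, 62.6 and 68.1 CPM in LDN (2.43 ± 0.13; adjusted p = 1.13e-07). Abcb6, a porphyrin transporter, rose by 2.48 ± 0.22, in contrast to Abca1 above. Ion channels gave 8 of 28 higher and 5 lower: Kcnab2, a potassium channel subunit, rose from 35.3 ± 11.1 to 173 ± 41.8 CPM (2.29 ± 0.21) and Mcu, the mitochondrial calcium uniporter, from 37.5 ± 4.65 to 98.1 ± 12.4 CPM (1.39 ± 0.12). Trpm7, a divalent cation channel with a kinase domain, was at 18.8, 11.7, 12.5 and 57.9 CPM in HDN and at 5.64, 4.84, 6.28 and 7.96 CPM in LDN (-2.03 ± 0.43; adjusted p = 0.00184), with HDN 7 far above the other HDN libraries. Without HDN 7 the log2 fold change of Trpm7 was -1.21 (adjusted p = 0.000453). Glucose and monocarboxylate transporters gave 4 of 11 higher (2 without LDN 3 or LDN 5) and 2 lower (1 without HDN 3, HDN 5 or LDN 5), with the neutrophil glucose carrier Slc2a3 at 729 ± 158 CPM in HDN and 1333 ± 226 CPM in LDN (0.87 ± 0.18). Amino acid transporters gave 5 of 18 higher (8 with the replicate block) and 3 lower, and zinc transporters with metallothioneins 3 of 20 higher and 6 lower.

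Receptors and signalling molecules showed opposite movements between lists. MHC class I molecules display peptides from the cell interior to T cells, and the peptides are made by the proteasome and carried by TAP. Of 16 tested members of this list 0 rose and 9 (56.2%) fell, with a median of -0.74. Nlrc5, the transactivator of MHC class I genes, was at 139.8, 201, 25.96 and 111 CPM in HDN and at 29.5, 51.3, 3.78 and 23.5 CPM in LDN (-2.14 ± 0.62; adjusted p = 0.0121). HDN 5 lay below 2 LDN libraries, but within each number LDN was lower than HDN. H2-K1, a classical class I heavy chain, was at 649, 1304, 500.1 and 531 CPM in HDN and at 333, 493, 289 and 373 CPM in LDN (-1.005 ± 0.28; adjusted p = 0.0102). B2m, the invariant light chain, named after its values were seen, was at 906, 1096, 795 and 708 CPM in HDN and at 651, 603, 688 and 543 CPM in LDN (-0.50 ± 0.14; adjusted p = 0.00972). For both genes the fractions did not overlap, and HDN 4 was the highest library. H2-D1, the other classical chain, had a log2 fold change of -0.49 ± 0.23 and was not called (adjusted p = 0.0938; with the replicate block 0.0166, without HDN 7 0.0238, without LDN 4 0.0472). Heavy-chain genes are near-identical copies, so reads could be split between them in counting. The members called lower numbered 7 to 11 when 1 library at a time was left out.

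The promoter of B2m is shown because it carries both kinds of element through which class I genes are known to answer interferon and NF-kappaB. It spans chr2:122147537-122147686 on the plus strand of GRCm38.p6, the 150 bases before the RefSeq start, with the first match, to an interferon-stimulated response element, and the second, to an NF-kappaB site read on the other strand, in capitals. The matches begin at -139 and -126 and do not overlap.
B2m: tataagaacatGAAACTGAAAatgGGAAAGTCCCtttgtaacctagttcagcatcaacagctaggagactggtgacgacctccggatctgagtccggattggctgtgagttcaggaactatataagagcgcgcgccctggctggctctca
Searched on both strands of 300-base promoters, the response element occurred in 3.24% of the promoters of tested genes and in 3.44% of all promoters of the RefSeq table, and the NF-kappaB site in 0.463% and 0.411%. Of the class I list, 10 of 16 tested genes had a promoter in the table and 3 of them, B2m, H2-T23 and Erap1, held the response element. Counted by gene in the same way, the share was 3.94% of tested genes with a promoter. A match describes the sequence and is not evidence of binding.

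Interferon regulatory factors and nucleic acid sensors gave 4 of 22 higher and 11 lower, with a median of -0.44. Irf1, the factor of the class I response, named after its values were seen, was at 681, 845, 447 and 453 CPM in HDN and at 309, 423, 201 and 297 CPM in LDN (-0.98 ± 0.23; adjusted p = 0.00408). Aim2, the cytosolic DNA sensor of the inflammasome, fell from 7.83 ± 4.48 to 2.76 ± 0.713 CPM (-1.50 ± 0.37). The exceptions were large: Irf8, the factor of monocyte and dendritic cell fate, also named after its values were seen, was at 0.63, 0.286, 0.685 and 0.0763 CPM in HDN and at 6.597, 5.86, 3.93 and 3.82 CPM in LDN (3.61 ± 0.45; adjusted p = 3.18e-05). Ikbke, an innate kinase, rose by 1.55 ± 0.19 and Tmem173, the adaptor STING, by 1.02 ± 0.19. Samhd1, the most abundant member, was not called (-0.13 ± 0.15; adjusted p = 0.5). The number of lower members fell to 5 without HDN 3, 6 without HDN 4 and 7 without LDN 5, and the 4 higher members held their number whichever library was left out.

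Other receptor lists were mixed. Signalling through cyclic AMP and RGS proteins gave 13 of 29 higher and 4 lower. Adcy7, the adenylyl cyclase of blood cells, rose from 27.3 ± 3.77 to 67.4 ± 5.67 CPM (1.30 ± 0.13), and of the phosphodiesterases that degrade cyclic AMP, Pde4d rose from 2.73 ± 0.888 to 8.64 ± 1.397 CPM (1.66 ± 0.24) while the more abundant Pde4b was at 64.1, 46.5, 68.1 and 66.02 CPM in HDN and at 25.6, 17.9, 22.2 and 17.8 CPM in LDN (-1.55 ± 0.17; adjusted p = 1.42e-05). Rgs18, a brake on G protein signalling in blood cells, rose from 4.89 ± 2.38 to 16.7 ± 11.1 CPM (1.78 ± 0.48). Cytokine receptors gave 3 of 25 higher and 4 lower (9 lower with the replicate block), with Il3ra, the IL-3 receptor chain, at 1.76 ± 0.201 CPM in HDN and 7.99 ± 1.3 CPM in LDN (2.17 ± 0.19) and Il2rg, the common gamma chain, at 11.4 ± 3.96 and 30.4 ± 2.27 CPM (1.42 ± 0.22). Lifr, the receptor of leukaemia inhibitory factor, was at 4.85, 7.72, 2.89 and 48.2 CPM in HDN and at 2.13, 1.199, 1.02 and 6.14 CPM in LDN (-2.60 ± 0.81; adjusted p = 0.0177), and without HDN 7 its difference of -0.97 was not called (adjusted p = 0.15). Of the TNF families 4 of 15 were higher and 5 lower: Tnfrsf13b, the receptor TACI, rose from 7.09 ± 0.669 to 22.7 ± 1.94 CPM (1.68 ± 0.14), and Tnfsf14, the ligand LIGHT, fell from 216 ± 73.97 to 111 ± 13.1 CPM (-0.97 ± 0.22). Growth factors and semaphorins gave 4 of 13 higher and 1 lower (0 without HDN 3, HDN 5 or LDN 7, 2 without HDN 7 or LDN 4, 3 with the block). Other lists were MHC class II and costimulation with 7 of 15 higher and 3 lower (3 higher without HDN 3, LDN 4 or LDN 5, and 4 without HDN 7, LDN 3 or LDN 7), Src-family kinases and phosphatases with 6 of 25 higher and 4 lower (7 with the block), and PI3K genes with 4 of 25 higher and 5 lower (3 without HDN 4, HDN 5, LDN 3 or LDN 5, 8 with the block).

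Gene control lists leaned towards lower levels in LDN. Of 14 KLF, EGR and NR4A factors, which include rapid-response genes, 8 (57.1%) fell and 1 rose, with a median of -0.81. Klf4, a factor of monocyte fate, was at 15.4, 14.4, 18.96 and 16.8 CPM in HDN and at 9.31, 5.95, 3.78 and 7.87 CPM in LDN (-1.28 ± 0.23; adjusted p = 0.000542). Klf6, an abundant family member named after its values were seen, was at 652, 367, 636 and 777 CPM in HDN and at 348, 219, 347 and 343 CPM in LDN (-0.95 ± 0.21; adjusted p = 0.00229). Klf5 was the exception and rose from 19.6 ± 5.86 to 39.8 ± 9.003 CPM (1.02 ± 0.20). Leaving out 1 library at a time gave 8 to 10 lower members and 1 higher member.

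The circadian clock runs on transcription factors that repress their own genes, and in neutrophils it is known to time ageing in the blood. Of 15 tested clock genes 7 (46.7%) fell and 1 rose, with a median of -0.57. Nfil3, a repressor that the clock and cytokines both drive, was the most abundant of them at 492, 506, 506 and 363 CPM in HDN and at 241, 249.8, 203 and 263 CPM in LDN (-0.96 ± 0.16; adjusted p = 0.00027). Cry2, a core repressor, fell from 8.86 ± 2.36 to 4.45 ± 1.47 CPM (-0.996 ± 0.24). Ciart, a clock-driven repressor named after its values were seen, was at 0.388, 0.413, 0.99 and 0.534 CPM in HDN and at 0.125, 0.138, 0.0511 and 0.233 CPM in LDN (-2.04 ± 0.53; adjusted p = 0.00703), close to the level of 3 reads in LDN and too low to be tested in the blocked fit. Per1, which answers the clock and glucocorticoids, was at 211 ± 58.1 and 145 ± 55.4 CPM (-0.54 ± 0.33) and was not called (adjusted p = 0.2), but was called with the replicate block at -0.63 (adjusted p = 0.000872). With the 8 HDN and LDN libraries fitted alone, 3 clock genes were lower.

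The promoter of Ciart is shown for its E-boxes, the CACGTG sites that the activators CLOCK and BMAL1 are known to bind. It spans chr3:95882229-95882378 on the minus strand of GRCm38.p6, the 150 bases before the RefSeq start, with the 3 E-boxes in capitals, beginning at -116, -58 and -44.
Ciart: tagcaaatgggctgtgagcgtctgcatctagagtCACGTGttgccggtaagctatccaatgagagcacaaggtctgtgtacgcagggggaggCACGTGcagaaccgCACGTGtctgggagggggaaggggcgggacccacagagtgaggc
An E-box occurred in 10.2% of the promoters of tested genes and in 7.15% of all promoters in the table. By gene, 4 of the 12 clock genes with a promoter held one (Ciart, Cry1, Per1 and Tef), against 12% of tested genes with a promoter. Of these 4, Ciart was the called one.

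Factors of the MAF, MITF and nuclear receptor families gave 4 of 20 higher and 6 lower (3 without HDN 3). Ahr, the aryl hydrocarbon receptor, was at 21.1, 27.2, 23.3 and 69.4 CPM in HDN and at 3.17, 3.64, 2.15 and 7.91 CPM in LDN (-3.06 ± 0.44; adjusted p = 0.000113), against 0.11 ± 0.0531 CPM in Naive. HDN 7 was the highest library, and within the numbers LDN was lower than HDN each time. Maff, a small MAF factor induced by stress, was at 4.02, 5.37, 3.58 and 5.34 CPM in HDN and at 1.29, 0.876, 0.46 and 1.02 CPM in LDN (-2.31 ± 0.38; adjusted p = 0.000279). Of 13 glucocorticoid-responsive genes 6 fell and 0 rose, with a median of -0.66, but 3 were lower without HDN 4 and 11 with the replicate block. Dusp1, the phosphatase that ends p38 signalling, was at 3139, 3058, 2754 and 3009 CPM in HDN and at 1198, 1469.99, 857 and 2475 CPM in LDN (-0.995 ± 0.30; adjusted p = 0.0147). LDN 7 came closest to HDN for Dusp1, as for Fos and Ppp1r15a. 

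Targets of p53 gave 6 of 20 lower and 1 higher, with a median of -0.40. Plk2, a stress-induced kinase, was at 43.1, 34.2, 37.9 and 30.9 CPM in HDN and at 11.5, 10.1, 6.59 and 11.03 CPM in LDN (-1.90 ± 0.23; adjusted p = 2.3e-05). Cdkn1a, the cell-cycle inhibitor p21, was at 29.5, 57.9, 30.1 and 59.2 CPM in HDN and at 12.4, 13.9, 9.04 and 17.7 CPM in LDN (-1.74 ± 0.27; adjusted p = 0.000196). Pmaip1, the apoptosis trigger NOXA, fell by 2.38 ± 0.46 on the log2 scale, with HDN 7 its highest library at 60.2 CPM against 16.1 to 25.4 CPM in the other HDN libraries. G1 cyclins and CDK inhibitors were divided, with 6 of 21 higher and 5 lower: Cdk2 and Cdk4, kinases of entry into the cycle, rose by 1.23 ± 0.10 and 1.27 ± 0.29, while Ccnd2 fell from 7.01 ± 3.41 to 1.69 ± 0.8 CPM (-2.05 ± 0.37).

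Maff, Plk2 and Ppp1r15a, members of separate lists that all fell in LDN, share an exact cyclic AMP response element, TGACGTCA, which reads the same on both strands. Their promoters are shown, 150 bases before the RefSeq start in GRCm38.p6, with the element in capitals. The stretch of Maff is chr15:79347370-79347519 on the plus strand, 1 of 3 promoters listed for the gene, with the element at -29. That of Plk2 is chr13:110394894-110395043 on the plus strand, with the element at -62, and that of Ppp1r15a is chr7:45526269-45526418 on the minus strand, with the element at -12.
Maff: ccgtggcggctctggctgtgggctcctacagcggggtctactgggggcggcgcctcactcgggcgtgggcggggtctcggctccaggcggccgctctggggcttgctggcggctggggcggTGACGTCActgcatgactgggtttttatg
Plk2: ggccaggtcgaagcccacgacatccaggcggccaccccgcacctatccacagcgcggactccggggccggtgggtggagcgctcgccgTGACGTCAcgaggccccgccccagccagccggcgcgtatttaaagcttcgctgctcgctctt
Ppp1r15a: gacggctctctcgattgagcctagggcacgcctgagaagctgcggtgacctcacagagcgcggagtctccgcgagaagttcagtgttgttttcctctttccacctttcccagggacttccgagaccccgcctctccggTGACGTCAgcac
The element occurred in 3.23% of the promoters of tested genes and in 1.79% of all promoters in the table. These 3 genes were chosen for display after their values and sequences were seen, and the element was not confined to genes that fell. Among other list members described here, Snrpa, which rose by 2.30, held it, as did Dusp1 and Gas5, which fell. Counted by gene, it occurred in 3.8% of tested genes with a promoter.

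**Figure D5:**
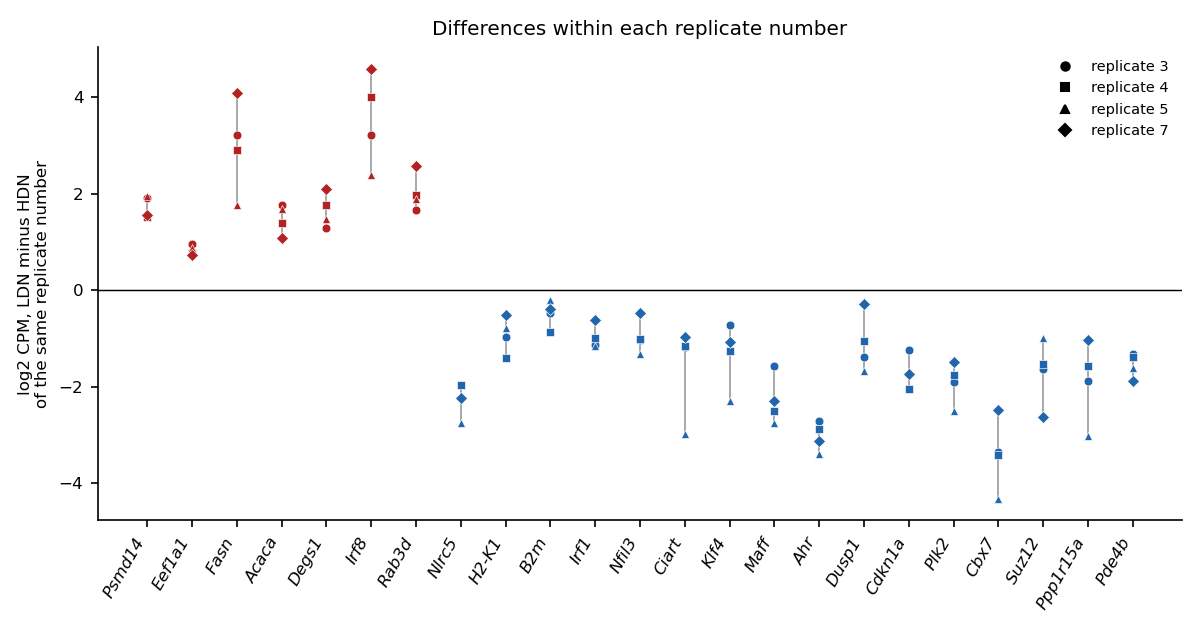
Log2 CPM of LDN minus HDN within each replicate number (symbols) for 23 genes of the lists, red where positive and blue where negative, with a line over the range of the 4 numbers. Every gene shown has 1 sign in all 4 numbers, and the spread is widest for genes such as Fasn, Irf8, Ciart and Ppp1r15a.

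Chromatin genes were lower more often than genes at large. Of 30 remodelling and Polycomb genes 12 (40.0%) fell and 4 rose, with a median of -0.35. Polycomb complexes keep genes silent by marking histones. Cbx7, the reader of the Polycomb mark, was at 20.2, 20.5, 22.2 and 19.1 CPM in HDN and at 1.88, 1.85, 1.02 and 3.35 CPM in LDN (-3.33 ± 0.27; adjusted p = 1.45e-06). Suz12, a core subunit of the writer complex, was at 34.2, 20.4, 22.7 and 82.9 CPM in HDN and at 10.9, 7.06, 11.4 and 13.2 CPM in LDN (-1.91 ± 0.39; adjusted p = 0.00141). The level of Cbx7 was even within HDN, while that of Suz12 rested in part on HDN 7, without which its log2 fold change was -1.27 (adjusted p = 0.00109). Bcor, a corepressor of a variant Polycomb complex, was at 87.7, 87.1, 80.4 and 77.3 CPM in HDN and at 13.6, 16.4, 8.38 and 23.1 CPM in LDN (-2.43 ± 0.23; adjusted p = 3.59e-06). Of the 4 members that rose, 3 belong to SWI/SNF remodelling: Smarca4, its motor, went from 51.2 ± 5.89 to 108 ± 2.24 CPM (1.08 ± 0.12), Smarcb1 from 9.87 ± 0.79 to 23.01 ± 2.904 CPM (1.22 ± 0.13) and Smarce1 from 12.7 ± 1.02 to 21.4 ± 3.71 CPM (0.75 ± 0.18).

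Histone demethylases and deacetylases gave 10 of 31 lower and 5 higher. Hdac10, a polyamine deacetylase, fell from 5.92 ± 0.974 to 1.15 ± 0.388 CPM (-2.36 ± 0.23), and Kdm7a, an H3K9 and H3K27 demethylase, from 198 ± 123 to 83.8 ± 26.9 CPM (-1.24 ± 0.36), with the fractions overlapping. Long noncoding RNAs gave 4 of 15 lower and 0 higher (7 lower and 1 higher with the replicate block): Snhg12, a snoRNA host, fell by 1.68 ± 0.25 and Gas5, another host, by 0.91 ± 0.21 on the log2 scale.

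Genes of cell architecture and secretion were higher in part. Complement and coagulation gave 11 of 19 higher and 2 lower (1 without HDN 3, HDN 4, LDN 3, LDN 5 or LDN 7), with a median of 1.37, but 3 of the 11 were C1qa, C1qb and C1qc, which rest on the few LDN reads given above, and 7 were higher under the stricter filter on low counts. Cd55, the brake on complement at the cell surface, was at 4.17, 1.59, 3.12 and 2.37 CPM in HDN and at 21.6, 11.7, 30.2 and 13.7 CPM in LDN (2.79 ± 0.33; adjusted p = 2.03e-05). Hc, complement C5, rose from 3.78 ± 0.966 to 13.4 ± 3.16 CPM (1.83 ± 0.22) and F5, coagulation factor V, from 69.7 ± 25.3 to 162 ± 38.5 CPM (1.22 ± 0.26). Platelet markers summed to 82.6 to 140.5 CPM in HDN and 124 to 147 CPM in LDN, mostly Selp at 107 ± 26.7 and 103 ± 7.68 CPM. Of 10 tested platelet markers 6 were higher and 1 lower, with a median of 1.79, and 2 were higher under the stricter filter. Pf4 was at 0.019 ± 0.0381 and 0.314 ± 0.144 CPM, and the part of platelet markers in these values was not tested.

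Exocytosis and SNARE genes gave 11 of 27 higher and 3 lower. Rab3d, a small GTPase of secretory vesicles, was at 121, 114, 126 and 63.01 CPM in HDN and at 387, 450.4, 467 and 375 CPM in LDN (1.98 ± 0.19; adjusted p = 4.25e-06). Sytl1, a Rab27 effector of granule docking, rose from 18.8 ± 5.102 to 68.9 ± 13.8 CPM (1.87 ± 0.21) and Unc13d, which primes granules for release, from 108 ± 26.4 to 214 ± 15.8 CPM (0.99 ± 0.17), while Snap23, the membrane SNARE, fell from 283 ± 81.95 to 157 ± 56.8 CPM (-0.85 ± 0.27). Without HDN 3, Snap23 was not called (adjusted p = 0.0563). Tetraspanins, membrane organisers, gave 7 of 15 higher and 4 lower. Tspan32, a tetraspanin of blood cells, rose from 0.815 ± 0.151 to 7.01 ± 1.58 CPM (3.08 ± 0.20) and Cd81 from 1.36 ± 0.283 to 7.26 ± 2.096 CPM (2.41 ± 0.21), whereas the more abundant Tspan13 was at 365, 361, 378 and 221 CPM in HDN and at 145, 111, 128 and 95.7 CPM in LDN (-1.47 ± 0.19; adjusted p = 4.94e-05). Tubulins and microtubule proteins gave 10 of 25 higher and 4 lower (6 higher without HDN 3, HDN 7, LDN 4 or LDN 5), with Tuba4a at 0.84 ± 0.10 and Tubb6 at -1.50 ± 0.27. Of 8 adhesion GPCR and Ms4a genes 3 were higher and 2 lower (1 without any single library other than HDN 7). Adgre5, the leukocyte receptor CD97, was at 3069.9, 3423, 3223 and 2798 CPM in HDN and at 1338, 1459.98, 1391 and 1727 CPM in LDN (-1.08 ± 0.12; adjusted p = 1.81e-05), and Adgrg3, a receptor of mature neutrophils, rose from 57.5 ± 19.9 to 142 ± 25.8 CPM (1.31 ± 0.23).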

How the data were processed

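Blood LDN (n = 4), blood HDN (n = 4) and marrow Naive (n = 4) neutrophils were profiled by RNA-seq. The authors deposited raw read counts per gene, and their processing notes name CASAVA 1.8.2, Trimmomatic, STAR and DESeq2 1.16.1. For genome build, annotation and strand setting the sources used here give nothing. In the authors' deposited comparison table, log2 fold changes, a test-statistic score and p-values stand per gene, per the file headers.

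The counts of all 12 libraries were filtered by expression and fitted with edgeR 4.0.16 (R 4.3.3) by its quasi-likelihood test, with TMM scaling and group as the only term; adjusted p-values are Benjamini-Hochberg over all 10604 genes tested, called under 0.05. The script was tested on simulated data. Alternatives used DESeq2 1.42.0, limma 3.58.1, other scalings and filters, 8 libraries, a replicate block, and each library left out.

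Replicate numbers were used as pairs in the replicate block and in the differences within numbers, not in the main fit. Deviations of same-numbered HDN and LDN libraries correlated at 0.385, 0.760, 0.495 and 0.315 over genes. Unlike-numbered libraries correlated at -0.608 to 0.412, the highest being HDN 3 with LDN 5, above the 0.385 of number 3. The labels do not say what a number marks. Members and lists were chosen with earlier results of these data known. Named genes were the largest changes each way at 2 levels of expression, up to 3 members each way and the most abundant uncalled member of each list, the most abundant uncalled genes, and any marker; exceptions are stated beside their values. Promoters came from RefSeq (GRCm38.p6) and covered 80.5% of tested genes, 80.0% of genes called higher and 79.9% of genes called lower. Motif shares of the called groups are not given, and shares by list leave out genes without a promoter.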

Additional observations from a re-analysis of the deposited data

Results flagged for a closer look

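In 19 of 288 groups of 4 libraries checked, 1 library lay far from the other 3, by a gap that chance alone gives in about 1 in 20 groups. HDN 7 was that library in 10 of them. It was high for Ppp1r15a (90.7 CPM, others 48.3 to 52.3), Trpm7 (57.9, others 11.7 to 18.8), Lifr (48.2, others 2.89 to 7.72) and Ahr (69.4, others 21.1 to 27.2). It was low for Degs1 (130.8 CPM, others 158.8 to 159.4), S1pr4 (54.4, others 95.3 to 102.8), Mcu (30.6, others 39.7 to 40.2), Nfil3 (362.7, others 491.7 to 505.9) and Tspan13 (221 CPM, others 361 to 378), and it needed 354 genes to reach 50% of its counts, against 252 to 260.

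LDN 4 was high for H2-D1 (825 CPM, others 618 to 647), Sytl1 (89.4, others 59.4 to 64.1) and Cd81 (10.4, others 5.89 to 6.42), and low for Klf6 (218.7, others 342.7 to 348.4). HDN 4 was high for Pnpla2 (1031 CPM, others 510.4 to 584.9) and low for Rgs18 (1.34, others 5.72 to 6.32) and Snap23 (161.8, others 311.4 to 340.1). LDN 7 was high for Mtmr10 (11.1 CPM, others 9.69 to 9.89), and LDN 5 had the fewest genes above 1 CPM (8580, others 8814 to 8852). The part that any of these libraries' quality or cell content plays was not tested.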

How the results depend on the processing

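The count of called genes, 4914, was 4064 with the 8 HDN and LDN libraries alone, 4796 with limma-voom, 5000 with RLE scaling, 5445 with DESeq2 and 5709 with the replicate block, and 4425 to 5199 when 1 library at a time was left out; no such count moved by over 1.5 times. Apart from the values given beside results, the block changed no call named above. Among the other settings, Lifr was not called with limma-voom (adjusted p = 0.0565) or with the 8 libraries alone (0.0502), and H2-D1 was called without the 20 most abundant genes in the scaling (0.0202); no named gene changed its call under RLE scaling, DESeq2 or either filter, where it could be tested. The difference in the number of genes holding 50% of counts was -118.75 to -84.75 with 1 library left out, where the smallest exact permutation p is 0.0571, and -109.0 under sign flips of the replicate block pairs (p = 0.125, the smallest for 4 pairs). Of 114 counts of list members, 4 to 22 moved by over 1.5 times under a given setting, fewest with RLE scaling and most with the block. Depth limits genes near 3 reads, such as the C1q genes.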
